A study of Mus musculus with 6 samples.

Results

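Short-lived messenger RNAs with AU-rich elements are the class of transcript that ZFP36L2 is best known for. The mRNAs of 10 genes known for either trait were followed here through an eCLIP experiment in MLTC-1 cells. This line was established from a mouse Leydig cell tumour and is labelled as testicular. The 10 genes were Dusp1, Egr1, Ier2, Klf2, Klf4, Pim1, Per1, Ccn1, Plk2 and Hif1a, taken by name as transcripts known for fast turnover or for AU-rich 3′ untranslated regions (UTRs). All rows of the authors' deposited table that carried one of these names were used, which gave 28 of the 55449 peaks and 10 of the 10818 gene names. Every one of the 28 peaks carried a single gene name and lay inside the RefSeq span of that gene.

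An AU-rich element is a stretch of a 3′ UTR built from repeats of AUUUA, and ZFP36 family proteins hold such stretches through tandem CCCH zinc fingers and recruit the enzymes that remove the poly(A) tail. Immediate early genes are transcribed within minutes of a stimulus without new protein synthesis, and their messages are cleared as quickly. In Leydig cells, luteinizing hormone acting through cyclic AMP is a well-known inducer of several of them.

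The series compared RNA crosslinked by ultraviolet light and recovered with an antibody against ZFP36L2 (2 immunoprecipitation libraries) with RNA recovered with rabbit IgG, the negative control (1 library). Input libraries, which hold RNA bound by all proteins, existed for the ZFP36L2 arm (2 libraries) and the IgG arm (1 library). All 6 libraries came from crosslinked MLTC-1 cells, an established line with no genetic change and no hormone or drug treatment named in the labels. Each peak came with the authors' log2 fold change, its p-value and the p-value after adjustment. As the name of the table sets ZFP36L2 against IgG, positive values were read as more recovery with ZFP36L2. With 3 columns of values and none for a library, levels in single libraries, their spread and the sequencing depth cannot be given, and the IgG arm has no replicate. A fold change is a difference in recovered RNA fragments at a site, and it is not the level of the transcript. A peak was called higher or lower with ZFP36L2 where its adjusted p was under 0.05 and its log2 fold change 1 or more in size. Of the Leydig cell markers looked up, 11 of 16 had a peak, among them Cyp11a1, Star and Lhcgr, whereas Hsd3b1, Hsd3b6, Cyp17a1, Hsd17b3 and Insl3 had none. Cyp11a1 (33 of 35 peaks), Lhcgr (1 of 16) and Prlr (1 of 20) were the 3 with a higher peak. Nr2f2 (1 of 6), Pdgfra (1 of 4) and Gata4 (1 of 12) were the 3 with a lower one. Of all genes, 5.04% had a higher peak and 17.3% a lower one, and of all peaks 2.22% were higher and 5.44% lower. Of 20 markers of other cell types, 15 had a peak. Among these, 5 had a higher peak. They were the muscle genes Ckm (1 of 9 peaks), Ttn (18 of 566) and Myh6 (1 of 44), the macrophage gene Lyz2 (2 of 4) and the Sertoli gene Clu (1 of 5). Adgre1 (1 of 13), Cd34 (1 of 4) and Ttn (1 of 566) were the 3 with a lower one. For Ttn and Myh6 the part of peaks called higher was near that of all peaks. The Sertoli markers Sox9, Amh and Dhh had no peak of any kind. Their part in the values of the 10 mRNAs was not tested.

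No gene of the 10 held both a higher and a lower peak. Only Pim1 and Plk2 had more than 1 called peak, so for the other genes this could not have been otherwise. The share of all genes with both kinds is not given here. Dusp1, Egr1, Ier2 and Hif1a each had 1 peak that was higher with ZFP36L2, with log2 fold changes between 2.99 and 4.09 in the authors' deposited table. Klf2, Klf4, Pim1, Per1, Ccn1 and Plk2 had 8 peaks that were lower with ZFP36L2, between -4.26 and -2.73 in the authors' deposited table. The other 16 peaks were not called. At an adjusted p under 0.01, 4 higher and 5 lower peaks were left, where 1.9% of all peaks were higher and 3.36% lower. Over the whole series 2.22% of peaks were higher and 5.44% were lower, and 5.04% of genes had a higher peak and 17.3% a lower one. The 10 names were put together with earlier results of this table known, and each has a called peak, so these counts describe the choice as well as the RNA and cannot be read against those shares.

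**Figure D1:**
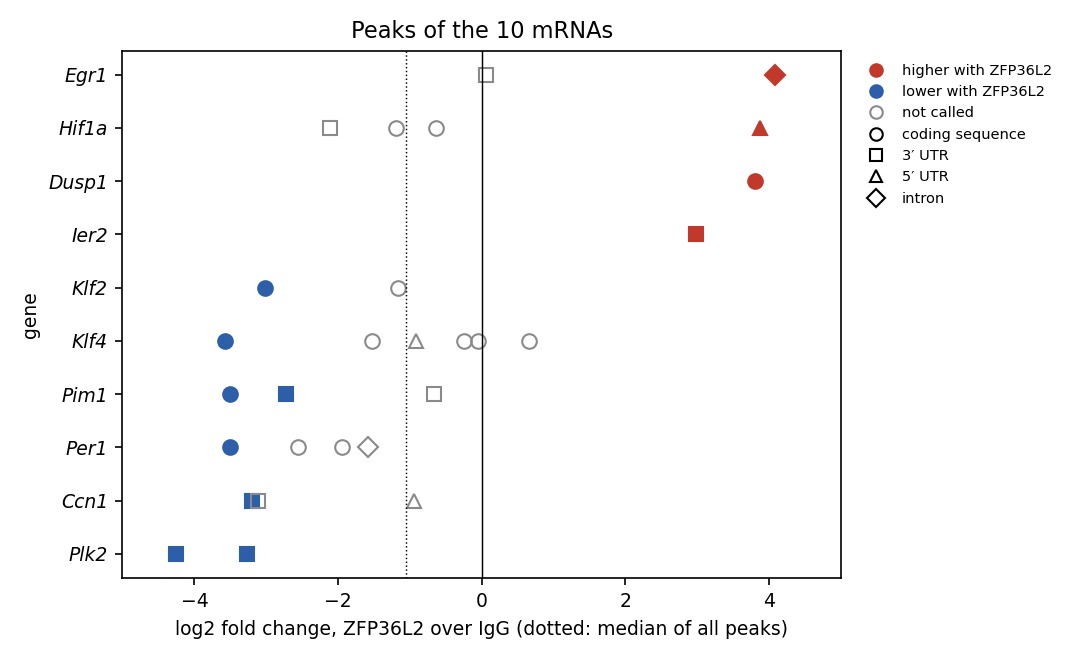
Log2 fold change of ZFP36L2 over IgG (horizontal axis) for each of the 28 peaks, by gene. Filled symbols are called peaks and open symbols are not called, the shape gives the transcript region, and the dotted line is the median of all 55449 peaks (-1.06). The 4 genes at the top each hold 1 peak at 2.99 or above, and the 6 at the bottom hold peaks at -2.73 or below and none called above 0.

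The median over the 28 peaks was -1.36 on the log2 scale, against -1.06 over all peaks of the authors' deposited table. Of the 28, 22 lay below 0, and 76.2% of all peaks did. Measured from the median of all peaks in place of 0, 12 of the 28 lay above and 16 below. Counted by value alone, called or not, 3 of these peaks stood at 3 or above and 8 at -3 or below as deposited. Once values were centred on that median, 4 stood at 3 or above and 1 at -3 or below. The 8 include the uncalled Ccn1 peak at -3.11 and leave out the called Pim1 peak at -2.73. The 1 that stayed below -3 was the Plk2 peak with the most negative value. Over all peaks, 721 stood at 3 or above and 2627 at -3 or below as deposited, so the excess of large negative values is one of the whole table. Calls remade on the centred scale kept the deposited adjusted p, which belongs to the deposited scale, so they are no separate check.

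Dusp1 encodes a dual-specificity phosphatase that switches off MAP kinases in the nucleus. It had a single peak, of 158 bases, at chr17:26508312-26508469 on the minus strand (mm10), with a log2 fold change equal to 3.80 (adjusted p = 3.4e-06, the authors' deposited table). That value exceeded 99.2% of all peaks. The table assigns the peak to coding sequence, and by the RefSeq annotation its first base was base 4 of the transcript, 3 bases from the annotated start. It was the longest of the 28 peaks. Its first 30 bases, chr17:26508440-26508469 read on the minus strand 5′ to 3′, are shown because no other peak of the 8 genes with one reaches into a RefSeq start window, the only source of sequence used here. They come from RefSeq (GRCm38.p6, the same build as mm10), in lower case throughout because no motif was found in them.
Dusp1 peak, first 30 bases: gaaggactggcgggaggaaagcgcggtgaa
Of these 30 bases, 19 were G or C (63.3%). The AU-rich core ATTTA was searched on the transcript strand over the 47 bases of the peak that the window holds and was found 0 times, so the longer TATTTAT, which contains it, was absent too. The same 47 positions held ATTTA in 2.19% of the 32851 RefSeq start windows. The remaining bases of the peak were not searched.

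Peaks at a transcript start were uncommon in the table. Among 42990 peaks of genes with a start window, 265 (0.616%) overlapped the first 50 bases of a RefSeq transcript of the same gene, and the Dusp1 peak was the 1 among the 28. Of the 265, 20 (7.55%) were higher with ZFP36L2 and 20 (7.55%) were lower, against 2.22% and 5.44% of all peaks. By region, 82 of the 265 were classed as coding like the Dusp1 peak, and 178 as 5′ UTR. Genes with exactly 1 peak, as Dusp1 and Ier2 have, were called higher in 1.65% of 2361 cases and lower in 5.29%. Dusp1 and Ier2 cannot be read against these shares, since both were chosen with earlier results known.

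Hif1a, the oxygen-regulated subunit of the hypoxia-inducible factor, is translated from a long message and is not an immediate early gene. Its peak at chr12:73908034-73908069, in the 5′ UTR, was higher with ZFP36L2, with a log2 fold change equal to 3.87 (adjusted p = 1.3e-05, the authors' deposited table). It began 167 bases downstream of a RefSeq transcript start. The other 3 Hif1a peaks were not called, with -1.19 and -0.63 in coding sequence and -2.11 in the 3′ UTR, per the authors' deposited table. The last of these lay 322 bases before the annotated end of the gene (adjusted p = 1 in the authors' deposited table). Hif1a overlaps the RefSeq gene Gm15283, and 2 of its uncalled peaks, at 73945662 to 73945714 and at 73947197 to 73947232, lay inside that gene, although the table names Hif1a alone there. The called Hif1a peak lay outside it.

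Egr1, which also had a higher peak, is a zinc finger transcription factor and a textbook immediate early gene. Its peak at chr18:34862166-34862210, classed as intronic and 959 bases from the start of the gene, had a log2 fold change equal to 4.09 (adjusted p = 3.5e-12, the authors' deposited table). This was the largest value and the smallest adjusted p of the 28 peaks, and it ranked 334 by size among the 1231 higher peaks of the table. The gene's other peak, of 14 bases in the 3′ UTR at 34864311 to 34864324, had 0.06 (adjusted p = 1, the authors' deposited table). Egr1 was the only one of the 10 genes with several peaks and all of them above 0.

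Ier2 encodes a nuclear protein induced with the first wave of growth factor response genes. Its single peak, of 70 bases at chr8:84661646-84661715 on the minus strand, lay in the 3′ UTR, 315 bases before the annotated end of the gene. It had a log2 fold change equal to 2.99 (adjusted p = 7.9e-07, the authors' deposited table). Among the 3′ UTR peaks of all genes, 99.1% had a lower value. It was the only 3′ UTR peak of these 10 mRNAs called higher.

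Lower peaks in 3′ UTRs came from Plk2, Ccn1 and Pim1. Plk2, a polo-like kinase induced by serum and stress, had a touching pair at chr13:110400544-110400573 and chr13:110400574-110400602, the second ending 242 bases before the end of the gene. They stood at -3.27 (adjusted p = 0.032) and -4.26 (adjusted p = 2.3e-05) on the log2 scale of the authors' deposited table. The second value was the most negative of the 28, and 0.43% of all peaks lay below it. Plk2 had no other peak, so both of its peaks were lower.

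Ccn1, formerly called Cyr61, encodes a matricellular protein secreted after growth factor or mechanical stimulation. In its 3′ UTR, chr3:145647152-145647168 had -3.20 (adjusted p = 0.042) and the touching chr3:145647169-145647206 had -3.11 (adjusted p = 0.06, the authors' deposited table). The first passed the threshold and its neighbour did not. The other Ccn1 peak, in the 5′ UTR, began 61 bases from the transcript start and had -0.94 (adjusted p = 1, the authors' deposited table), close to the median of all 5′ UTR peaks (-1.07).

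Pim1, a serine/threonine kinase that promotes survival downstream of cytokine receptors, had lower peaks in 2 regions. In coding sequence, chr17:29491902-29491962 had a log2 fold change equal to -3.50 (adjusted p = 0.00087, the authors' deposited table). In the 3′ UTR, 1059 bases before the end of the gene, chr17:29495039-29495052 had -2.73 (adjusted p = 0.047, the authors' deposited table), the weakest of the 12 calls. The peak that touches it, at 29495053 to 29495099, had -0.67 (adjusted p = 1, the authors' deposited table). Adjoining bases of this 3′ UTR thus gave a lower call and an uncalled value near the median of all 3′ UTR peaks (-1.08).

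The Krüppel-like factors Klf2 and Klf4 are zinc finger transcription factors of endothelial quiescence and of pluripotency. Klf2 had a lower peak in coding sequence at chr8:72320080-72320153, with -3.02 (adjusted p = 0.0063, the authors' deposited table). Its other coding peak, at 72319520 to 72319590, had -1.17 (adjusted p = 1, the authors' deposited table). Klf4 had the most peaks of the 10 genes, 6 in all, and 1 of them was lower: the coding peak of 100 bases at chr4:55529999-55530098, with -3.57 (adjusted p = 0.0016, the authors' deposited table). The other 5 ran between -1.52 and 0.66, the last being a coding peak of 10 bases, and all had an adjusted p of 1 in the authors' deposited table. Among genes with exactly 6 peaks, 24.5% had a lower peak. Klf4 cannot be read against that share, since it was chosen with earlier results known. Neither factor had a peak in its 3′ UTR.

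Per1, a repressor of the circadian clock that is also induced acutely by cyclic AMP, had 4 peaks, all below 0. The coding peak at chr11:69104641-69104712 was lower, with -3.51 (adjusted p = 0.0079, the authors' deposited table). Another coding peak had -1.94, and a touching pair at the edge of an intron had -2.55 on the coding side and -1.58 on the intronic side, none of them called (adjusted p between 0.42 and 1 in the authors' deposited table). Of the genes with exactly 4 peaks, 16.3% had a lower one, a share that Per1, chosen in the same way as Klf4, cannot be read against.

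By region, the 3′ UTR, where AU-rich elements lie, held 9 of the 28 peaks, from 6 genes with 1 higher and 4 lower calls. Over all genes, 1.46% of 3′ UTR peaks were higher and 4.83% were lower. The median log2 fold change of these 9 was -2.73, against -1.08 for all 3′ UTR peaks in the authors' deposited table. Most of the 9 belong to the touching pairs of Pim1, Ccn1 and Plk2. Coding sequence held 14 peaks with 1 higher and 4 lower calls, where 2.35% and 3.74% of all coding peaks were called. These 14 had a median of -1.36, against -0.72 for all coding peaks in the authors' deposited table. As the genes were chosen with earlier results known, the medians and calls by region describe that choice as well. The 3 peaks in 5′ UTRs and the 2 in introns held 1 higher call each and no lower one. Over the table, 3.18% of 5′ UTR peaks were higher and 5.78% lower, and 2.17% of intronic peaks were higher and 7.04% lower. Each of the 4 higher peaks thus carried a different deposited class of region, while 4 of the 8 lower peaks were coding and 4 lay in 3′ UTRs. The Dusp1 peak counts as coding here, although its first base was base 4 of the RefSeq transcript. The 4 in 3′ UTRs include the touching pair of Plk2, and at an adjusted p under 0.01 the 4 coding ones and 1 in a 3′ UTR were left.

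**Figure D2:**
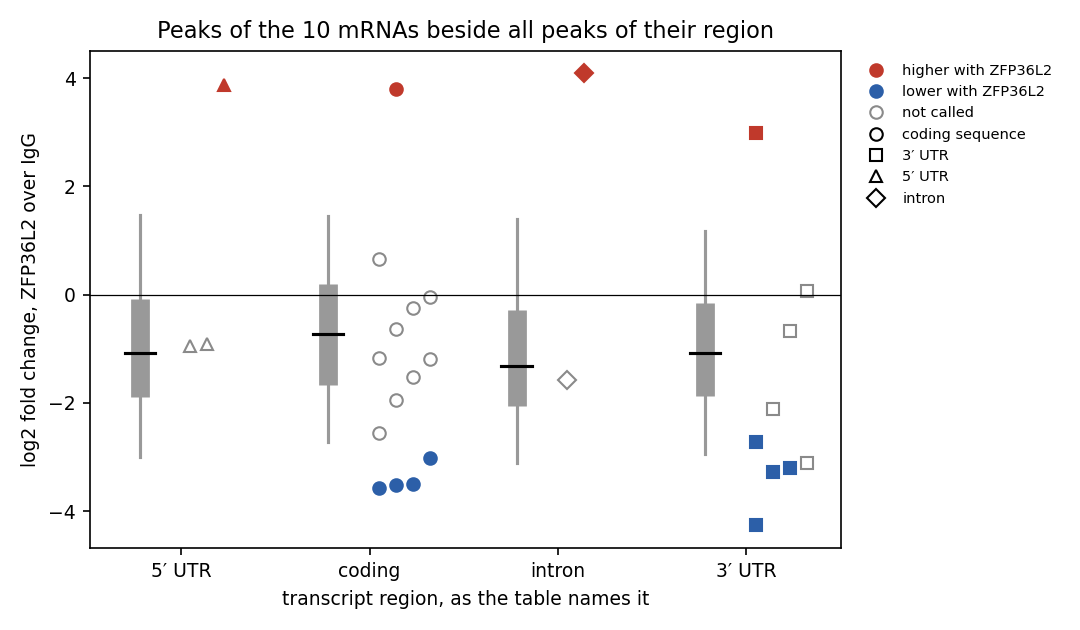
Log2 fold change (vertical axis) of the 28 peaks by transcript region, beside all peaks of that region, for which the black line is the median, the thick bar the 25th to 75th percentile and the thin line the 5th to 95th. The 4 called higher stand above the 95th percentile of their region (1.18 for the 3′ UTR, 1.46 for coding sequence). The call itself nearly fixes this, since only 0.587% of peaks with a log2 size of 1 to 2 were called. The 9 peaks of the 3′ UTR spread from -4.26 to 2.99.

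Along the genes, 3 of the 4 higher peaks were nearer the 5′ end. Their centres lay at 2.83% of the gene length from the 5′ end in Dusp1, 14.6% in Hif1a and 26.2% in Egr1, but at 77.0% in Ier2. The 8 lower peaks had centres between 21.5% and 95.6%. The ranges of the higher and the lower peaks overlap. Not every peak near a 5′ end was high, since the 5′ UTR peaks of Klf4 and Ccn1 had -0.91 and -0.94 in the authors' deposited table.

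**Figure D3:**
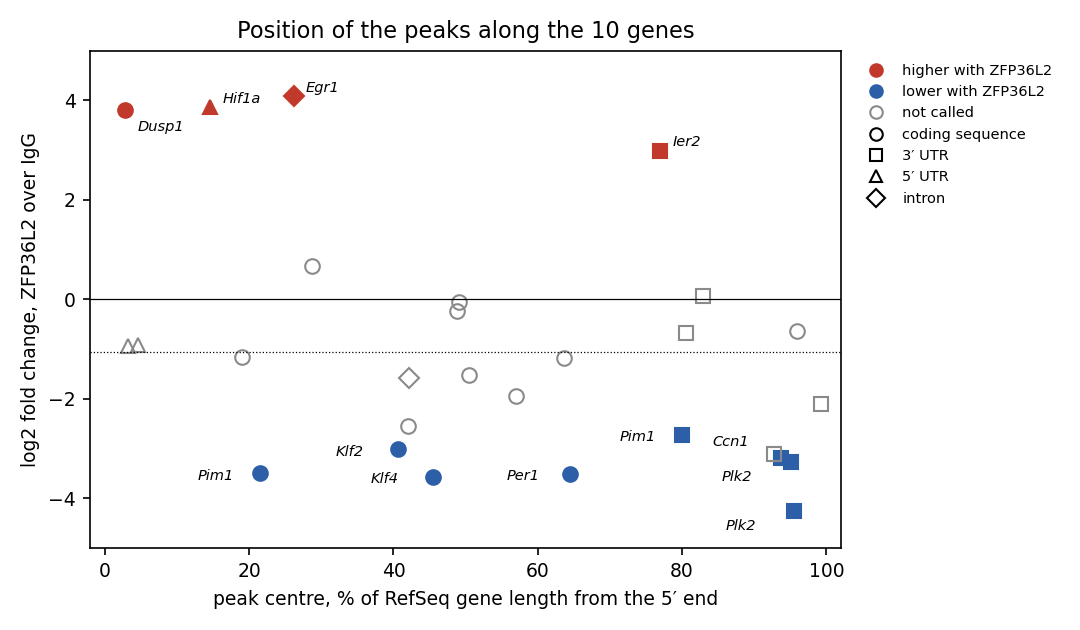
Log2 fold change of each peak (vertical axis) against the position of its centre as a percentage of the RefSeq gene length from the 5′ end (horizontal axis). Called peaks are named. Dusp1, Hif1a and Egr1 are at the upper left, Ier2 at 77.0% is at the upper right, and the lower peaks run from 21.5% to 95.6%.

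Of the 28 peaks, 10 touched another one and formed 5 pairs, in Klf4, Pim1, Per1, Ccn1 and Plk2. Both peaks of a pair were called in Plk2, 1 of them in Pim1 and in Ccn1, and neither in Klf4 and Per1. The 4 higher peaks each stood alone. Within 5000 bases of each of the 10 genes the table listed 0 peaks of any other gene on either strand.

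The deposited p-values depended on the size of the fold change in a way that bears on which peaks could be called. Of the 11421 peaks whose log2 fold change was under 0.5 in size, 99.6% had a p-value above 0.9 and 0 had one under 0.05 in the authors' deposited table. Of the peaks with a size of 2 to 3, 10.0% were called, and at 3 or more 92.6% were. Among the 28, 3 peaks with a size of at least 2 were not called, namely those of Per1 at -2.55, Hif1a at -2.11 and Ccn1 at -3.11 in the authors' deposited table. The Egr1 3′ UTR peak, with a p-value of 1, is therefore no measure of equal recovery.

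Other genes of the same kind were looked up from lists of textbook members, described by counts without a test of the list. Of 53 other immediate early genes, 32 had a peak in the table, and Fos, Myc and Sgk1 were among the 21 with none. Of the 32, 1 gene (3.13%) had a higher peak and 5 (15.6%) a lower one, against 5.04% and 17.3% of all genes, and the median over their 104 peaks was -1.23 in the authors' deposited table. Jund, an AP-1 subunit, was the one with higher peaks, 2 of 2, at 4.72 in coding sequence (adjusted p = 2.2e-16) and 4.72 in the 3′ UTR (adjusted p = 2.0e-08, the authors' deposited table). Its partners Jun and Junb had 2 peaks each, between -0.60 and 0.73 in the authors' deposited table and none called. Srf, the factor that drives many immediate early promoters, was lower in 9 of 9 peaks, from -5.76 to -2.71 in the authors' deposited table. Srf alone gave 9 of the 18 lower peaks of the list. Ier5l, a relative of Ier2, was lower in 3 of 4 peaks, with a best value of -4.38 (adjusted p = 1.8e-05), and Sik1, a kinase induced by cyclic AMP, in 3 of 8, all in its 3′ UTR, in the authors' deposited table.

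Among 36 other mRNAs known for AU-rich elements, 24 had a peak, and Tnf, Il6 and Csf2, the classical cytokine targets, did not. Of the 24, 3 genes (12.5%) had a higher peak and 2 (8.33%) a lower one, with a median over 144 peaks of -0.65 in the authors' deposited table. Lhcgr, the luteinizing hormone receptor, had 1 higher peak of 16, at 3.93 in the authors' deposited table. Its region class there was Other and not 3′ UTR. Zeb1, a transcription factor of epithelial-mesenchymal transition, had 1 higher and 1 lower intronic peak among 19, at 5.06 and -3.02 in the authors' deposited table. Notch1, a cell surface receptor, had 1 lower coding peak at -3.10 in the authors' deposited table. Vegfa and Mcl1 had values between -0.03 and 0.74, and Ptgs2 had -2.60 and -2.36, none called, in the authors' deposited table.

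**Figure D4:**
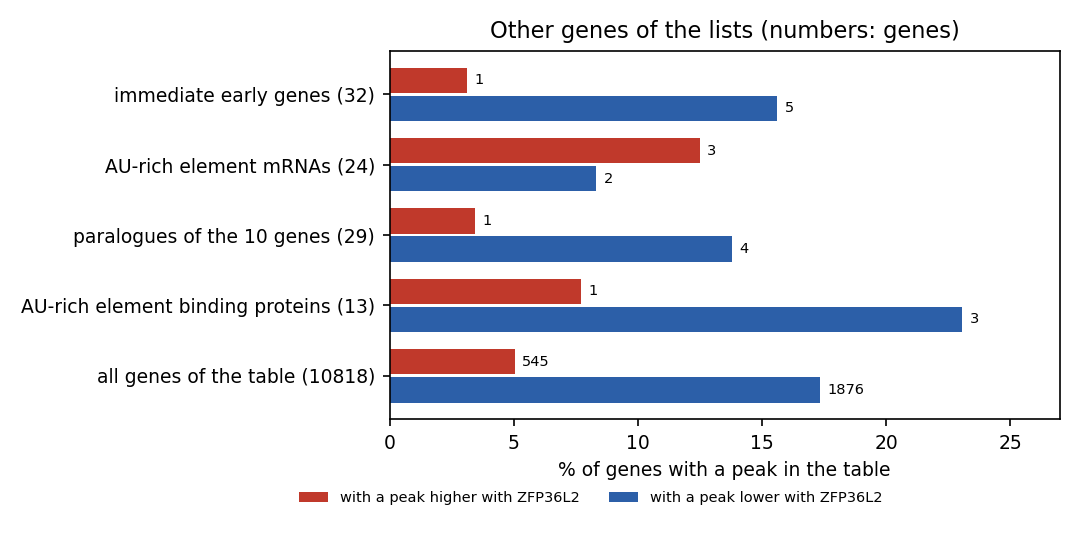
Percentage of genes with a peak in the table (horizontal axis) that had a peak higher (red) or lower (blue) with ZFP36L2, for 4 lists of other genes and for all genes. The number of genes tested stands after each name and the number called beside each bar. The lists of immediate early genes and of paralogues share genes. AU-rich element mRNAs had 12.5% higher and 8.33% lower, and all genes had 5.04% and 17.3%. These shares take no account of the number of peaks per gene. By peak, 3 of the 144 in that list were higher and 2 lower, where 2.22% and 5.44% of all peaks were.

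Paralogues of the 10 genes were compared with them as well. Of 46 listed, 29 had a peak, 1 of them (3.45%) a higher one and 4 (13.8%) a lower one, near the 5.04% and 17.3% of all genes. The list shares genes with that of the immediate early genes, so the counts are not separate. Ier5l and Per2 are among the genes with a lower peak in both. Both other period genes had lower peaks. Per2 had 2 lower peaks of 8 and Per3 had 3 of 8, all coding, the most negative being -3.26 in Per2 and -3.84 in Per3, per the authors' deposited table. Neither had a higher peak. In the Dusp family, 5 paralogues with 14 peaks held 0 calls and ran from -2.51 to 0.52 in the authors' deposited table, below the Dusp1 value of 3.80. For Egr2 and Egr4, 3 peaks ran from -2.58 to -1.93 in the authors' deposited table with 0 calls. Among 10 other Klf genes, 57 peaks held 1 higher and 1 lower call, both in introns of Klf12 (3.34 and -3.25 in the authors' deposited table). Ccn2, Ccn4 and Ccn5 together had 16 peaks and 0 calls. The 27 peaks of Epas1 and Arnt, the other hypoxia factor subunits with peaks, ran from -2.47 to 1.37 in the authors' deposited table with 0 calls. No peak was recorded for Pim2 or Pim3.

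Of 20 proteins that bind AU-rich or related elements, 13 had a peak in their own message, 1 (7.69%) with a higher one and 3 (23.1%) with a lower one, where all genes had 5.04% and 17.3%. Zfp36, Zfp36l1 and Zfp36l2 had none, and Zfp36l3 had 1 uncalled peak at -1.83 in the authors' deposited table. Pabpc1, the cytoplasmic poly(A)-binding protein, had 1 higher and 1 lower coding peak among 6, at 3.57 and -3.16 in the authors' deposited table. Elavl1, which encodes the stabilising protein HuR, had 2 lower intronic peaks among 6, at -2.97 and -2.92 in the authors' deposited table.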

How the data were processed

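Per the submitters' processing notes, the tools were DESeq2 1.34.0, STAR 2.7.7a, UMI-tools 1.1.1 and cutadapt 3.2, on build mm10. What each was used for is not stated there. Not given in the sources used here are the peak caller, any pooling, the use of the inputs and the normalization. Fold changes were deposited by the authors as log2 values, and p-values and adjusted p-values as −log10 values rounded to 2 decimals, converted back here. A Benjamini-Hochberg adjustment recomputed over all 55449 peaks differed from the deposited one by at most 0.0099 on the −log10 scale. The table is one of comparisons, so no count test was made and no spread between libraries can be given. Nothing in the labels names separate cultures. The p-values may therefore measure technical spread alone.

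Positions were written 1-based. Calls and counts were made in Python 3.11.15 with pandas 2.3.3 and tested on simulated data. Distances use RefSeq gene ends, or RefSeq transcript starts (GRCm38.p6), which 8 of the 10 genes had. The planned search for AU-rich motifs covered part of the Dusp1 peak alone, since no genome was used here. All 10 genes are named, with up to 4 called genes of each list by adjusted p (higher first) and Zfp36, Zfp36l1, Zfp36l2 and Lhcgr. Other genes were picked with their values in view. A few genes under this rule are not reported here. The 10 genes, the lists and the thresholds were chosen with earlier results of these data known.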

Additional observations from a re-analysis of the deposited data

How the results depend on the processing

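Over 7 alternatives (an adjusted p under 0.01, a log2 size of 2 or more, adjusted p alone, centring on the median of all peaks, a recomputed adjustment, peaks with 1 gene name, and touching peaks merged), 25 of 26 recomputed counts of called peaks and genes stayed within 1.5 times the reported one. Most of these could not have changed. All 28 peaks carry 1 gene name, the 12 called ones all exceed 2 in size, and centring kept the deposited adjusted p, so those settings say nothing about stability. At an adjusted p under 0.01, the 4 higher peaks were still called. The number of lower peaks was then 5 in place of 8, where 3.36% of all peaks were lower. The 3 lost were the 3′ UTR peaks of Pim1 (adjusted p = 0.047), Ccn1 (0.042) and Plk2 at -3.27 (0.032), so Ccn1 then had no called peak and 1 lower 3′ UTR peak was left, the one of Plk2 at -4.26. This follows from the stricter threshold itself. Merging touching peaks gave 7 lower stretches. Leaving out single libraries was not run, since the table holds no value per library, and depth per peak is unknown. No paired analysis was possible because no column names a library. The extended window for AU-rich motifs was not run, since no genome was used here.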
